A study of Mus musculus with 12 samples.

Results

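The 10 genes described here form the core of the circadian clock in mouse tissues: Arntl, Clock, Per1, Per2, Per3, Cry1, Cry2, Nr1d1, Nr1d2 and Dbp. They were found by pairing the Ensembl identifiers of the count tables with mouse gene symbols, and all 10 were present among the 46983 genes in the tables, of which 27093 had at least 1 count. All 10 members also passed the filter on low counts that left 14706 genes for testing, and their lowest count in any heart was 63. The clock genes were compared heart by heart and across the 4 groups of genotype and pregnancy.

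RNA came from the left ventricle of FVB mice aged 12 weeks, the offspring of Wt dams mated with Hif1a+/- sires. Dams were either left non-diabetic or made diabetic with streptozotocin, which destroys insulin-producing beta cells, so that the 4 groups of 3 hearts were Wt non-diabetic, Wt diabetic, Hif1a+/- non-diabetic and Hif1a+/- diabetic. "Diabetic" here names the pregnancy and not the offspring. Hif1a+/- mice carried 1 null allele (Hif1a tm1jhu) of the gene for the oxygen-regulated transcription factor HIF-1α in all tissues, and Wt littermates carried none. The sources give neither the time of day at which hearts were taken nor the light schedule, so group and collection time cannot be told apart. Hearts of a group came from separate animals, and p-values measure the spread between these hearts alone.

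Transcription of clock genes runs in a loop. The proteins encoded by Arntl (BMAL1) and Clock pair and activate genes through the E-box, among them the Per, Cry, Nr1d and Dbp genes. PER and CRY proteins then inhibit that pair, and the NR1D proteins (REV-ERBs) repress Arntl through sites called ROREs. DBP activates genes through the D-box. In the mouse heart, Arntl RNA is known to peak at about the time of day when Dbp RNA is lowest.

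The letters of these elements are shown at each place where the promoter windows of the members hold them, because the elements were named in the loop just described. The RefSeq promoter windows (GRCm38.p6, 250 bases before to 50 after the start of a gene) covered 9 of the 10 members, all but Per2, with 13 windows. Each stretch is printed 5′ to 3′ on the strand of its gene, with the element in capitals and 10 bases on either side. The start is the RefSeq start of the window that holds the match: Arntl and Per1 have 2 windows each and Clock 3, and the matches of Per1 and Clock lie inside those genes as GENCODE M21 annotates them (chr11:69095217-69109960 and chr5:76209868-76304792), at alternative starts.
Per1 (chr11:69098773-69098798, plus strand, E-box 166 bases before the start): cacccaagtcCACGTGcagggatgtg
Cry1 (chr10:85185099-85185124, minus strand, E-box 60 bases before the start): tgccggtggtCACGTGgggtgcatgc
Per3 (chr4:151044853-151044880, minus strand, D-box 205 bases before the start): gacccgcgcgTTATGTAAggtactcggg
Per3 (chr4:151044806-151044833, minus strand, D-box 158 bases before the start): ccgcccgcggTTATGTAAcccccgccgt
Arntl (chr7:113207532-113207557, plus strand, RORE core 31 bases after the start): ggcagaaagtAGGTCAgggacggagg
Clock (chr5:76303606-76303631, minus strand, RORE core in reverse 119 bases before the start): ctttggcctcTGACCTgacagatgac
Per1 (chr11:69098802-69098827, plus strand, RORE core in reverse 137 bases before the start): gacacagcccTGACCTcagtgggggc
Nr1d2 (chr14:18239168-18239193, minus strand, RORE core 77 bases before the start): ttggaagaagAGGTCAggaccgctcg

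The E-box CACGTG, searched on both strands, was present in 2 of the 13 windows of the members (Per1 and Cry1) and in 7.15% of all 32851 windows. The D-box TTATGTAA was present in 1 of the 13 windows, that of Per3, at 2 places, and in 0.938% of all windows. The core AGGTCA of the RORE was present in 4 of the 13 windows, 1 each of Arntl, Clock, Per1 and Nr1d2, and in 16.3% of all windows. No searched element lay within another. A match is a description of letters, and the absence of a match in Dbp or Nr1d1 says only that these letters are not in these windows.

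Total counts per heart were between 16132442 and 39812939. The summed level of 8 ventricular cardiomyocyte genes was 89050 to 102500 CPM (counts scaled to a common total by the TMM method) and that of 5 atrial genes 25.2 to 70.8 CPM, and no gene of either list was at 0. In whole left ventricle, fewer cells of a type and less RNA per cell cannot be told apart. Hif1a, the targeted gene, measured 47.9 to 71.8 CPM in the 6 Wt hearts and 64.8 to 89.4 CPM in the 6 Hif1a+/- hearts. Its log2 fold change in Hif1a+/- against Wt over both pregnancies was 0.43 (SE 0.09, edgeR adjusted p = 0.596, DESeq2 adjusted p = 0.0314). Libraries of 3′-seq read the end of a transcript, and where reads fell relative to the deleted part of the null allele was not analysed here, so these values do not check the genotype labels. The labels call the animals female and the series text calls them male: in 11 hearts Y-linked reads outnumbered Xist reads, and in Hif1a+/- diabetic heart 72 the reverse held. With and without heart 72, 0 members passed the test in each comparison, so this count cannot show whether the heart matters. The count of correlations passing was 7 in both cases. For Hif1a+/- diabetic against Wt diabetic, leaving it out moved the log2 fold change of Per2 from -1.41 to -1.26. That of Cry1 moved from -0.66 to -0.52.

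Clock genes differed widely between hearts of the same group. The within-group SD of log2(CPM + 1), pooled over the 4 groups, was 0.93 for Dbp, 0.78 for Arntl, 0.77 for Per2, 0.61 for Per1 and 0.61 for Per3, against a median of 0.16 over all tested genes. These 5 genes lay between the 99.4th and the 99.9th percentile of the 14706 genes. Nr1d1 (SD 0.32), Cry1 (0.30), Clock (0.27), Nr1d2 (0.25) and Cry2 (0.23) lay between the 78.6th and the 93.1st percentile. In all, 7 of the 10 members (70%) were at or above the 90th percentile, which holds 10% of all tested genes by definition. Against genes whose mean level lay within 1 log2 unit of their own, percentiles ran from 88.6 for Cry2 to 99.9 for Dbp.

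**Figure D1:**
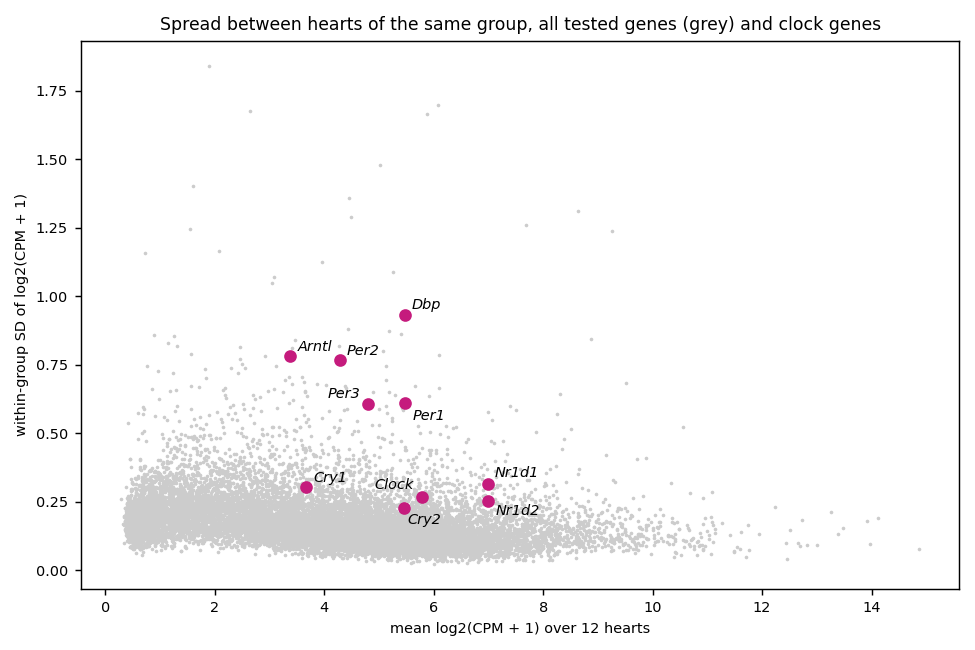
Within-group SD of log2(CPM + 1) against mean level for 14706 tested genes (grey) and the clock genes (magenta). Dbp (SD 0.93), Arntl (0.78) and Per2 (0.77) stand above nearly all genes of like level, while Cry2 (0.23) and Nr1d2 (0.25) lie nearer to the bulk.

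Values of the members are given below in a fixed order of animals: 25, 42 and 89 for Wt non-diabetic, 50, 7 and 80 for Wt diabetic, 14, 32 and 44 for Hif1a+/- non-diabetic, and 66, 72 and 77 for Hif1a+/- diabetic. CPM is a level and compares a gene between hearts, and it was not corrected for gene length.

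Arntl, the rhythmic subunit of the activator, was at or under 8.41 CPM in all 3 Wt diabetic hearts and in 1 heart of each other group. Its levels were 8.41, 16.8 and 21.6 CPM in Wt non-diabetic, 6.18, 6.78 and 4.11 CPM in Wt diabetic, 5.38, 19.1 and 20.3 CPM in Hif1a+/- non-diabetic, and 11.9, 10.3 and 2.78 CPM in Hif1a+/- diabetic hearts. The 3 Wt diabetic hearts lay below all 3 Wt non-diabetic hearts, whereas the Hif1a+/- groups overlapped, each with 1 heart far below its other hearts. The lowest heart of the study was Hif1a+/- diabetic 77 and the highest Wt non-diabetic 89, which differed 7.77-fold.

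Clock, the partner of Arntl in the activator, varied over a narrower range of 2.04-fold. Its levels were 63.1, 62.6 and 58.2 CPM in Wt non-diabetic, 51.4, 56.3 and 33.6 CPM in Wt diabetic, 53.9, 68.5 and 68.7 CPM in Hif1a+/- non-diabetic, and 57.5, 49.8 and 37.2 CPM in Hif1a+/- diabetic hearts. All Wt diabetic hearts lay below all Wt non-diabetic hearts, and heart 80 of the former was the lowest of the 12. The Hif1a+/- groups overlapped, with 2 of the 3 non-diabetic hearts above every diabetic heart.

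Among the period genes, which encode the inhibitory PER proteins, Per1 ranged over 4.04-fold. Its levels were 59.6, 32.1 and 36.2 CPM in Wt non-diabetic, 42.9, 91.7 and 73.9 CPM in Wt diabetic, 73.9, 22.7 and 23.8 CPM in Hif1a+/- non-diabetic, and 36.2, 32.7 and 48.3 CPM in Hif1a+/- diabetic hearts. The Wt diabetic and Hif1a+/- non-diabetic groups each held hearts at 73.9 CPM, and groups overlapped in both genotypes.

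Per2 had the widest range of all members, 7.92-fold. Its levels were 31.6, 16.9 and 6.17 CPM in Wt non-diabetic, 39.1, 48.9 and 21.8 CPM in Wt diabetic, 30.0, 12.3 and 11.7 CPM in Hif1a+/- non-diabetic, and 10.4, 10.7 and 20.7 CPM in Hif1a+/- diabetic hearts. Wt diabetic hearts 50 and 7 were the highest of the 12, and all Hif1a+/- diabetic hearts lay below all Wt diabetic hearts. Wt non-diabetic hearts spanned most of the range, from 6.17 to 31.6 CPM.

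Per3, the third period gene, ranged over 3.72-fold. Its levels were 27.5, 22.8 and 14.1 CPM in Wt non-diabetic, 27.4, 42.4 and 49.1 CPM in Wt diabetic, 52.5, 21 and 17.0 CPM in Hif1a+/- non-diabetic, and 15.5, 23.5 and 37.7 CPM in Hif1a+/- diabetic hearts. The highest heart, Hif1a+/- non-diabetic 14, belonged to the same group as heart 44, which ranked 10 of 12, and the Wt groups overlapped only between 27.4 and 27.5 CPM.

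Cry1 encodes one of the cryptochromes, which inhibit the activator together with PER. Its levels were 11.3, 12.8 and 7.52 CPM in Wt non-diabetic, 17.3, 17.9 and 11 CPM in Wt diabetic, 10.7, 13.9 and 13.1 CPM in Hif1a+/- non-diabetic, and 10.1, 7.75 and 11.5 CPM in Hif1a+/- diabetic hearts. Wt diabetic hearts 50 and 7 were again the highest of the 12, and heart 80 of that group was within the range of the other groups.

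Cry2, the second cryptochrome gene, had a tighter spread of 1.73-fold. Its levels were 42.3, 37.4 and 31.6 CPM in Wt non-diabetic, 50.1, 51.3 and 54.7 CPM in Wt diabetic, 50.6, 38.5 and 33.5 CPM in Hif1a+/- non-diabetic, and 42.8, 36.3 and 53.4 CPM in Hif1a+/- diabetic hearts. The 3 Wt diabetic hearts lay above all 3 Wt non-diabetic hearts, and the Hif1a+/- groups overlapped.

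Nr1d1 encodes REV-ERBα, a repressor of Arntl. Its levels were 131, 114 and 131 CPM in Wt non-diabetic, 79.3, 103 and 145 CPM in Wt diabetic, 177, 128 and 121 CPM in Hif1a+/- non-diabetic, and 132, 175 and 109.8 CPM in Hif1a+/- diabetic hearts. The highest values were in Hif1a+/- non-diabetic 14 and Hif1a+/- diabetic 72 and the lowest in Wt diabetic 50, and no 2 groups were apart within a genotype.

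Nr1d2 encodes the related repressor REV-ERBβ and varied over 1.68-fold. Its levels were 140.4, 105 and 100 CPM in Wt non-diabetic, 149, 141 and 162 CPM in Wt diabetic, 164, 117 and 97.8 CPM in Hif1a+/- non-diabetic, and 113, 110.2 and 142 CPM in Hif1a+/- diabetic hearts. The Wt diabetic hearts lay above the Wt non-diabetic hearts, by as little as 140.7 against 140.4 CPM.

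Dbp, an output gene of the loop that acts through the D-box, ranged over 6.49-fold. Its levels were 55.4, 21.5 and 26.6 CPM in Wt non-diabetic, 33.2, 51.4 and 107 CPM in Wt diabetic, 106, 27.2 and 16.5 CPM in Hif1a+/- non-diabetic, and 31.0, 62.1 and 77.2 CPM in Hif1a+/- diabetic hearts. Every group held a heart at or under 33.2 CPM and one at or above 55.4 CPM, and the groups overlapped.

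**Figure D2:**
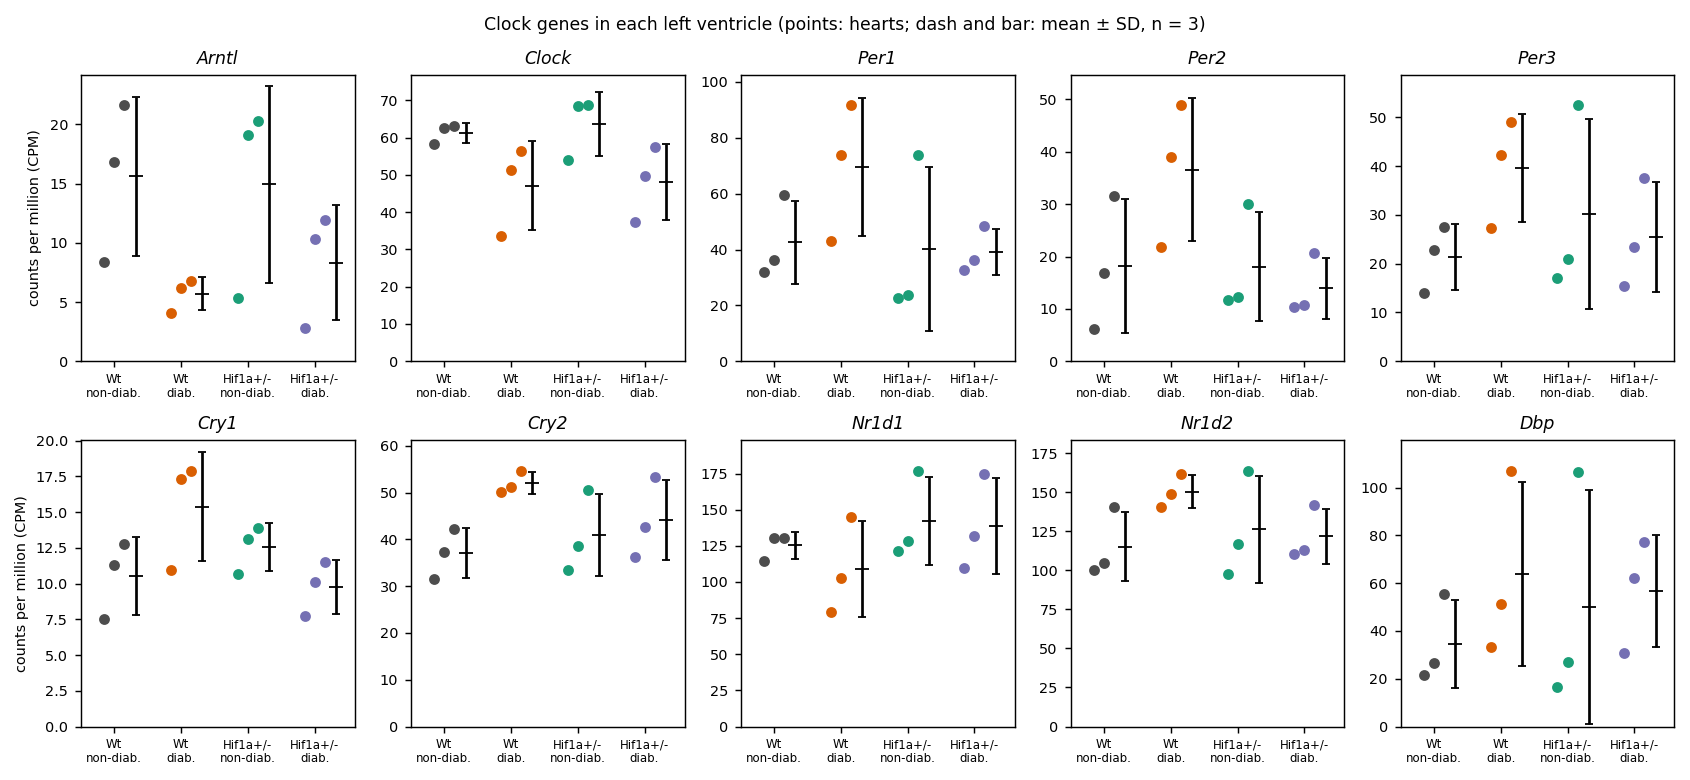
Level of each clock gene in CPM (vertical axis, from 0) in the 12 left ventricles by group; points are hearts, and the dash with its bar is the mean ± SD (n = 3). Arntl separates the Wt groups (4.11 to 6.78 against 8.41 to 21.6 CPM), while Dbp reaches 106 or 107 CPM in single hearts of the Wt diabetic and Hif1a+/- non-diabetic groups.

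Some stretches of exon are shared with a gene on the opposite strand: 263 of the 3077 exonic bases of Nr1d1 with Thra, and 539 of the 2993 of Dbp with Sphk2. How strand was treated in counting is not given in the sources used here, and without strand, reads from the shared bases cannot be told apart. As 3′-seq reads the end of a transcript, the share of reads from these bases can differ from their share of exonic bases. That share of reads was not measured for Nr1d1 or Dbp. Thra ranged from 74.1 to 105 CPM and Sphk2 from 21.5 to 34.7 CPM over the 12 hearts.

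Read heart by heart, low Arntl went with high levels of most other members. Of the 9 members set against Arntl over the 12 hearts, 7 correlated with it at a Benjamini-Hochberg adjusted permutation p under 0.1, with log2(CPM + 1) as the measure. Cry2 was the most closely opposed (r = -0.92, adjusted permutation p = 0.00045; rho = -0.91, adjusted permutation p = 0.00085). Nr1d2 followed (r = -0.88, raw permutation p = 0.00036, adjusted 0.0016; rho = -0.90, adjusted permutation p = 0.00085). Dbp had r = -0.85 (raw permutation p = 0.00079, adjusted 0.0016) and rho = -0.87.

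The period genes also ran against Arntl. Per3 had r = -0.84 (raw permutation p = 0.00089, adjusted 0.0016) and rho = -0.88. Per1 had r = -0.75 (raw permutation p = 0.0068, adjusted 0.01) and rho = -0.74, and Per2 had r = -0.67 (raw permutation p = 0.019, adjusted 0.024) and rho = -0.67. Clock ran with Arntl instead (r = 0.81, raw permutation p = 0.00052, adjusted 0.0016; rho = 0.80). The adjusted permutation p of rho was 0.012 for Per1, 0.025 for Per2, 0.0054 for Clock and 0.00085 for Per3 and Dbp. Clock was lowest in Wt diabetic 80, Hif1a+/- diabetic 77 and Hif1a+/- diabetic 72. On the first principal component of all tested genes (29.3% of variance) these hearts scored highest, at 21.6, 19.2 and 16.3. Wt non-diabetic 89, where Arntl was highest, came next at 8.75. The part of this component in the correlations and in the comparisons of Clock below was not tested.

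Cry1 and Nr1d1 did not pass this test. Cry1 had r = -0.18 (raw permutation p = 0.57, adjusted 0.64) and rho = -0.12 (adjusted permutation p = 0.81). Nr1d1 had r = 0.07 (raw permutation p = 0.84, adjusted 0.84) and rho = -0.01 (adjusted permutation p = 0.97). Both genes had a pattern of their own, with Cry1 highest in Wt diabetic hearts 50 and 7, where Nr1d1 was lowest.

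The relations were also computed within groups. After each group's mean was subtracted, the same count of 7 relations passed, by an exact permutation test over the 1296 arrangements of hearts within groups. Nr1d2 had r = -0.93 (exact p = 0.0015, adjusted 0.01), Cry2 -0.91 (exact p = 0.0054, adjusted 0.012), Per3 -0.90 (exact p = 0.0023, adjusted 0.01) and Dbp -0.83 (exact p = 0.0054, adjusted 0.012). Per1 (r = -0.77), Per2 (r = -0.71) and Clock (r = 0.69) each had an adjusted exact p of 0.033. Without the 2 hearts farthest from the median of Arntl, Wt non-diabetic 89 and Hif1a+/- diabetic 77, r was -0.91 for Cry2, -0.92 for Nr1d2, -0.86 for Dbp, -0.84 for Per3, -0.88 for Per1, -0.69 for Per2 and 0.78 for Clock, and -0.01 for Cry1 and -0.07 for Nr1d1.

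**Figure D3:**
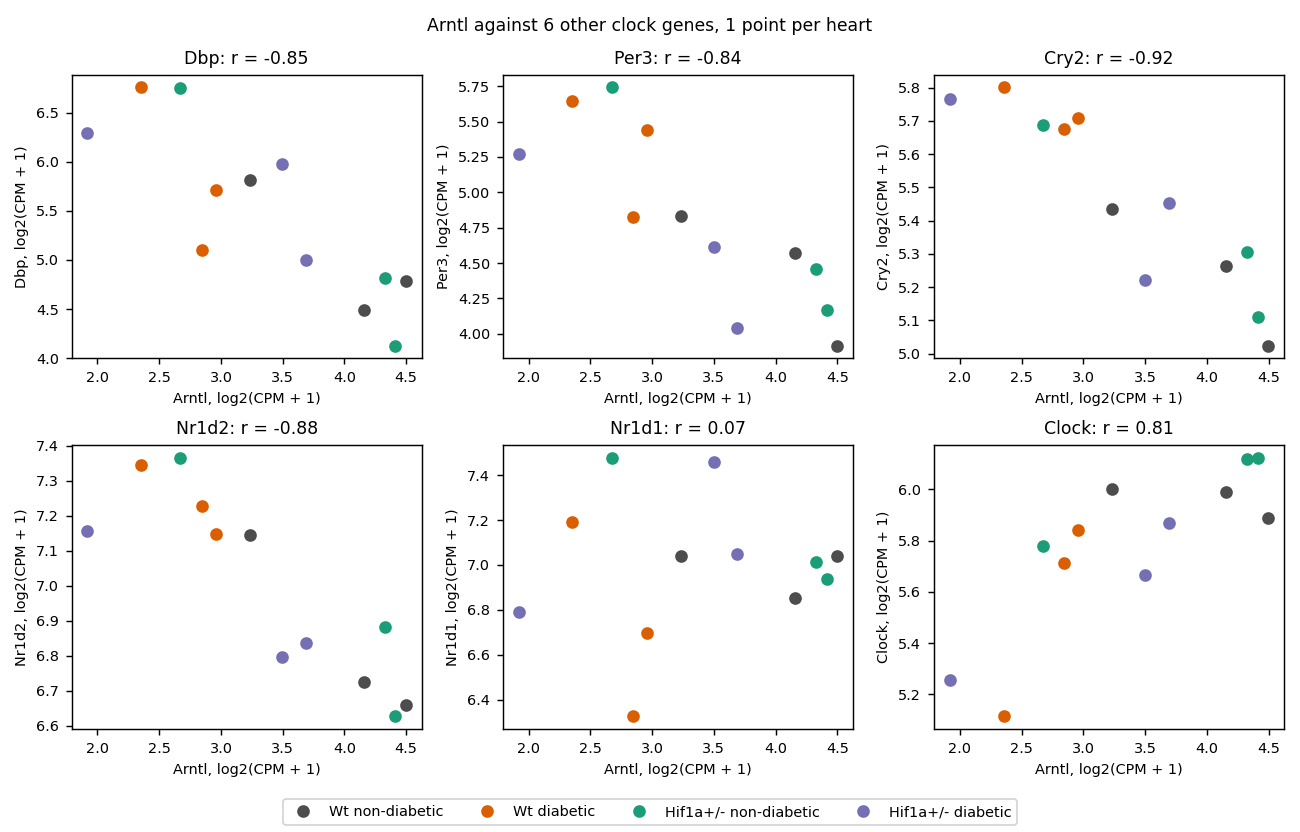
Arntl (horizontal axis) against Dbp, Per3, Cry2, Nr1d2, Nr1d1 and Clock (vertical axes), all in log2(CPM + 1), with 1 point per heart coloured by group. Points follow a falling line for Cry2 (r = -0.92) and Nr1d2 (r = -0.88), on which the Wt groups lie apart and the Hif1a+/- groups overlap. For Nr1d1 r was 0.07, which describes a straight-line relation only.

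The log2 ratio of Arntl to Dbp, used only to compare hearts and not the 2 genes, ordered the hearts, and the order crossed the groups. It was highest in Hif1a+/- non-diabetic 44 (0.30), Wt non-diabetic 89 (-0.30), Wt non-diabetic 42 (-0.35) and Hif1a+/- non-diabetic 32 (-0.51). It was intermediate in Hif1a+/- diabetic 66 (-1.38), Wt diabetic 50 (-2.43), Hif1a+/- diabetic 72 (-2.59), Wt non-diabetic 25 (-2.72) and Wt diabetic 7 (-2.92). It was lowest in Hif1a+/- non-diabetic 14 (-4.31), Wt diabetic 80 (-4.70) and Hif1a+/- diabetic 77 (-4.79). Thus 4 of the 6 hearts from non-diabetic pregnancy held the upper end, but hearts 25 and 14 of the same pregnancy groups lay among hearts from diabetic pregnancy.

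By group, the ratio was -1.12 ± 1.38 (SD, n = 3) in Wt non-diabetic, -3.35 ± 1.20 in Wt diabetic, -1.51 ± 2.46 in Hif1a+/- non-diabetic and -2.92 ± 1.73 in Hif1a+/- diabetic hearts. The ranges overlapped in both genotypes, -2.72 to -0.30 against -4.70 to -2.43 in Wt and -4.31 to 0.30 against -4.79 to -1.38 in Hif1a+/-. Within the lower part of the order the other members did not share 1 profile. Heart 7 had the highest Per1, Per2 and Cry1 while its Dbp ranked 6 of 12, and heart 80 had the highest Dbp and Cry2 while its Per2 ranked 5 and its Cry1 ranked 8.

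**Figure D4:**
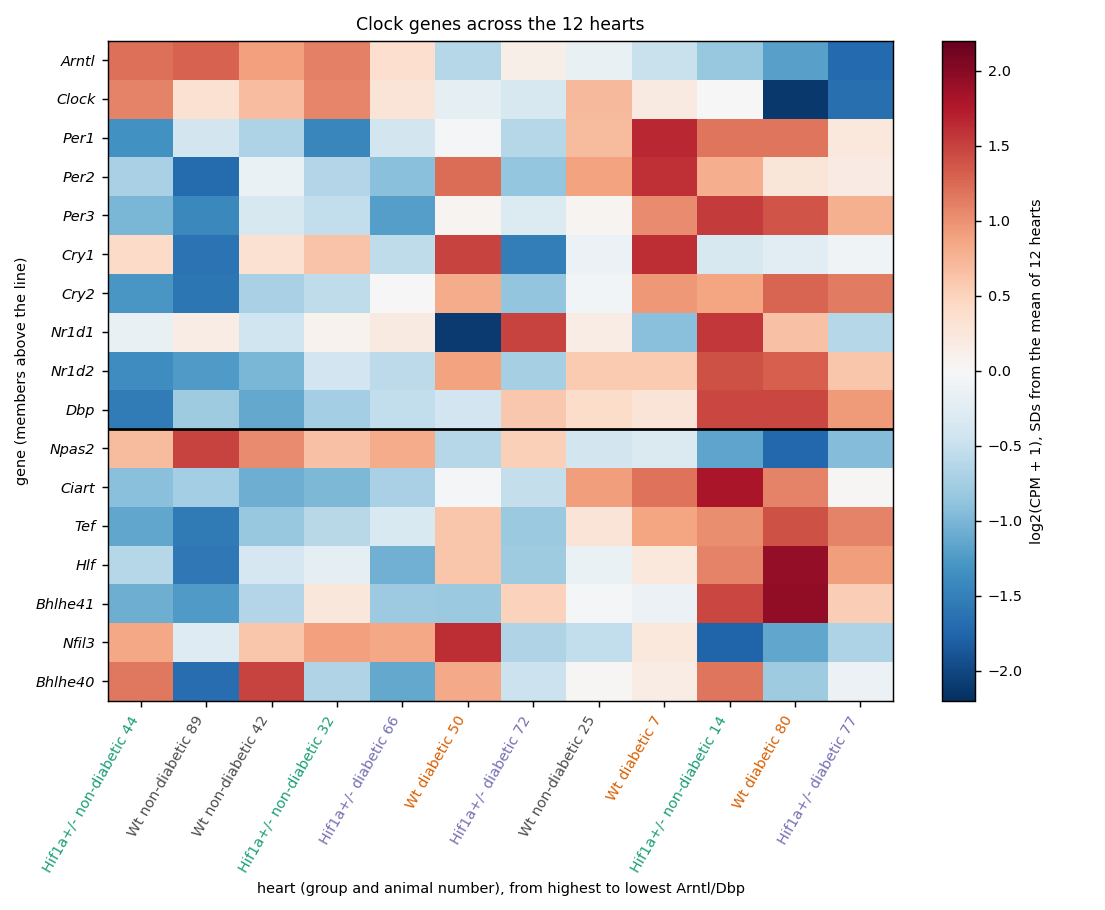
Heat map of log2(CPM + 1), in SDs from the mean of the 12 hearts, for the 10 members (above the line) and 7 other clock loop genes, with hearts from the highest to the lowest Arntl/Dbp ratio. Hearts of all 4 groups mix along the order, from Hif1a+/- non-diabetic 44 (log2 ratio 0.30) to Hif1a+/- diabetic 77 (-4.79).

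Exposure to maternal diabetes was first compared within Wt, the contrast in which most members differed at an unadjusted p. No member passed edgeR's quasi-likelihood test at an adjusted p under 0.1, and neither did any of the 14706 genes (0%). At an unadjusted p under 0.05 the test counted 5 of 10 members, against 2.78% of all genes. Most members moved together over these hearts (r with Arntl of -0.92 for Cry2, -0.88 for Nr1d2 and -0.84 for Per3, but -0.18 for Cry1). Counts and medians of members, here and in the comparisons below, are therefore not over independent genes. The members were also chosen with earlier results of these data known, so their counts beside the share of all genes are a description only. Arntl had a log2 fold change of -1.45 (SE 0.53), and Cry2 of 0.49 (SE 0.16), Cry1 of 0.56 (SE 0.22), Per3 of 0.89 (SE 0.41) and Nr1d2 of 0.39 (SE 0.18). The unadjusted edgeR p was 0.0165 for Arntl, 0.00966 for Cry2, 0.0265 for Cry1, 0.0497 for Per3 and 0.0459 for Nr1d2, and the adjusted p was 1 for each.

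Of the other members, Per2 had a log2 fold change of 1.03 (SE 0.51), Dbp of 0.89 (SE 0.62), Per1 of 0.71 (SE 0.41), Clock of -0.38 (SE 0.18) and Nr1d1 of -0.20 (SE 0.21). The median over the 10 members was 0.52, and over all tested genes 0.01. The groups did not overlap for 4 members, Arntl, Clock, Cry2 and Nr1d2, against 5.54% of all genes. DESeq2 called 4 genes (0.0148%) in this comparison and no member. The summed macrophage genes overlapped between these groups (217 to 354 against 222 to 321 CPM). So did the 5 red cell genes (497 to 1771 against 491 to 7323 CPM). Of these, 4 were tested, with a median log2 fold change of -1.68 and none at an unadjusted p under 0.05. Among them Hba-a1 ran from 163 to 2236 CPM in Wt non-diabetic hearts (mean 874, SD 1180, n = 3). Its highest heart carried most of that mean. The part of these lists in the values of the members was not tested. Each of the 10 log2 fold changes kept its sign when any 1 heart was left out, but several moved by more than 1.5 times. Dropping Wt diabetic 80 gave 0.31 for Dbp and -0.19 for Clock, and dropping Wt diabetic 50 gave -0.01 for Nr1d1. Dropping Wt non-diabetic 89 gave 0.61 for Per2, 0.36 for Cry1 and -1.15 for Arntl, and dropping Wt non-diabetic 25 gave 1.68 for Per2, 1.41 for Dbp, 1.03 for Per1, 0.56 for Nr1d2 and -1.74 for Arntl. Over all such values Cry1 reached 0.74, Clock -0.52, Nr1d1 -0.46 and the lowest Per1 was 0.46, while Per3 ran from 0.66 to 1.11 and Cry2 from 0.39 to 0.60.

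In Hif1a+/- mice the same exposure gave log2 fold changes of the opposite sign to those in Wt for 5 members: Per1 (-0.05, SE 0.41), Per2 (-0.39, SE 0.51), Per3 (-0.26, SE 0.41), Cry1 (-0.36, SE 0.22) and Nr1d2 (-0.05, SE 0.18), none of which passed the test. No member passed edgeR's test, and neither did any gene (0%). Clock alone had an unadjusted p under 0.05 (log2 fold change -0.40, SE 0.18, edgeR adjusted p = 0.414), against 12% of all genes. Arntl had a log2 fold change of -0.81 (SE 0.51, edgeR adjusted p = 0.527), which was -1.22 without Hif1a+/- non-diabetic heart 14 and -0.41 without Hif1a+/- diabetic heart 77. Clock was at -0.55 without Hif1a+/- diabetic heart 66 and -0.25 without heart 77. The groups overlapped for all 10 members, whereas they did not for 24.4% of all genes, and the members' median log2 fold change was -0.16 against -0.01 over all genes. DESeq2 called 201 genes (1.44%) and none of the members. In this comparison the summed level of 5 macrophage genes was 331 to 444 CPM in diabetic and 166 to 256 CPM in non-diabetic Hif1a+/- hearts, with no gene of the list at 0. Other markers also had an unadjusted p under 0.05. Higher were Vwf (1 of 5 endothelial genes), Col1a1 and Tcf21 (2 of 5 fibroblast genes) and Adipoq (1 of 4 tested adipocyte genes). Lower were Cdh5 (endothelial), Myh11 and Rgs5 (2 of 5 smooth muscle and pericyte genes) and Kcna1 (1 of 3 tested Schwann cell genes). The part of these lists in the value of Clock was not tested.

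The difference between these exposure effects was tested as the interaction of genotype and diabetes. It passed for no member and no gene (0%) in edgeR, with 1 member, Cry1, at an unadjusted p under 0.05 (log2 difference -0.91, SE 0.32, edgeR adjusted p = 0.998) against 2.52% of all genes. For Cry1 the exposure value was 0.56 (SE 0.22) in Wt and -0.36 (SE 0.22) in Hif1a+/-. DESeq2 called no gene (0%). The exposure values in Wt are therefore not shown to differ from those in Hif1a+/-.

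Averaged over both genotypes, diabetic against non-diabetic pregnancy again gave no call (0%) in edgeR, with 3 members at an unadjusted p under 0.05 against 11.3% of all genes. Arntl had a log2 fold change of -1.13 (SE 0.37, edgeR adjusted p = 0.323), Clock of -0.39 (SE 0.13, edgeR adjusted p = 0.328) and Cry2 of 0.30 (SE 0.12, edgeR adjusted p = 0.38). The highest Arntl level among hearts from diabetic pregnancy was 11.9 CPM, and 4 of 6 hearts from non-diabetic pregnancy lay above it. The remaining 7 members had log2 fold changes from -0.12 (Nr1d1) to 0.53 (Dbp), and the members' median was 0.23. Of the 5 macrophage genes, 4 were higher at an unadjusted p under 0.05 in the same comparison (list median 0.49). So was Vwf among 5 endothelial genes. Lower were Cdh5 (endothelial), Myh11 and Rgs5 among 5 smooth muscle and pericyte genes, and Kcna1 among 3 tested Schwann cell genes. The part of these markers in the values of the members was not tested. DESeq2 called 203 genes (1.46%) and no member. Heart 72 left the value of Arntl at -1.21 (SE 0.40) when it was removed.

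**Figure D5:**
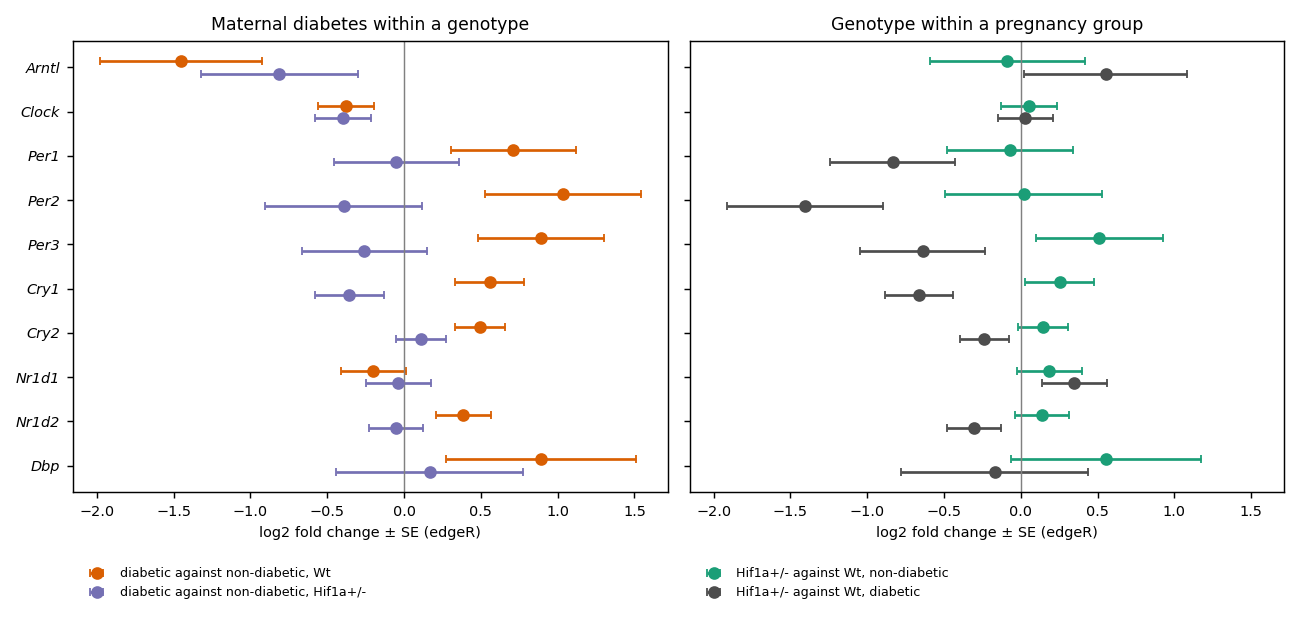
Log2 fold change ± SE of each clock gene from edgeR, for maternal diabetes within each genotype (left) and for genotype within each pregnancy group (right). In Wt, Arntl lies at -1.45 and Per2 at 1.03, while in Hif1a+/- the exposure values of all members but Arntl lie within 0.40 of 0; no value passed the adjusted threshold.

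Genotype was compared within each pregnancy group. Among offspring of non-diabetic pregnancy no member differed by edgeR at either threshold, against 0% of genes at the adjusted and 0.959% at the unadjusted one, and the groups overlapped for all 10 members (4.81% of all genes did not overlap). The values ran from -0.09 (Arntl) to 0.56 (Dbp) with a median of 0.14. DESeq2 called 1 gene (0.00369%), which was no member. The summed level of 5 red cell genes was 491 to 7323 CPM in Wt non-diabetic and 362 to 413 CPM in Hif1a+/- non-diabetic hearts. Among them Hba-a1 had a mean of 874 CPM in Wt non-diabetic hearts, most of it from the highest heart (2236 CPM). The part of red cell genes in the values of the members was not tested. Among offspring of diabetic pregnancy no member passed edgeR's test (0% of genes), and Per2 and Cry1 had an unadjusted p under 0.05, against 5.35% of genes. Per2 was lower in Hif1a+/- diabetic than in Wt diabetic hearts by a log2 fold change of -1.41 (SE 0.51, edgeR adjusted p = 0.862), without overlap, and Cry1 by -0.66 (SE 0.22, edgeR adjusted p = 0.862). Per2 was the only member without overlap, against 7.94% of all genes, and DESeq2 called 24 genes (0.155%) and no member. Without heart 72 the values were -1.26 for Per2 and -0.52 for Cry1. Cell type markers also differed there at an unadjusted p under 0.05. Higher were 1 of 5 macrophage genes (Lyz2), 1 of 5 endothelial genes (Vwf) and 2 of 5 fibroblast genes (Col1a1 and Col1a2). Lower were 2 of 5 smooth muscle and pericyte genes (Myh11 and Tagln). The summed macrophage level was 331 to 444 against 217 to 354 CPM. The part of these markers in the values of Per2 and Cry1 was not tested.

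Averaged over both pregnancies, Hif1a+/- against Wt gave no member and no gene (0%) at the adjusted threshold in edgeR and no member at an unadjusted p under 0.05 (2.69% of all genes), and DESeq2 called 7 genes (0.0259%) and no member. Between the groups that differed in both factors, Hif1a+/- diabetic and Wt non-diabetic, no member passed edgeR at either threshold, against 0% of genes at the adjusted and 8.85% at the unadjusted one. Arntl had a log2 fold change of -0.90 (SE 0.51, edgeR adjusted p = 0.606) there, which was -1.27 without Hif1a+/- diabetic heart 66 and -0.50 without heart 77 of that group. Clock alone did not overlap between these groups (14.6% of all genes), and DESeq2 called 68 genes (0.453%) and no member. Markers of other cell types differed in the same comparison at an unadjusted p under 0.05. Higher were 4 of 5 macrophage genes (median 0.61, summed level 331 to 444 against 222 to 321 CPM). Vwf, 1 of 5 endothelial genes, and Col1a1, 1 of 5 fibroblast genes, were also higher. Lower were 4 of 4 tested red cell genes (median -2.47, summed level 185 to 734 against 491 to 7323 CPM). So were 3 of 5 smooth muscle and pericyte genes (median -0.21, summed level 770.5 to 852 against 796 to 970 CPM). Kcna1, 1 of 3 tested Schwann cell genes, was lower too. The red cell sums overlapped, and Hba-a1 was at 56.9 to 223 CPM in Hif1a+/- diabetic hearts. In Wt non-diabetic hearts it was at 163 to 2236 CPM (mean 874), so that the highest heart carried most of that mean. No gene of these lists was at 0, and their part in the values of Arntl and Clock was not tested. The comparisons share groups, Wt non-diabetic entering 3 of the 5 pairwise ones, and are not independent of each other.

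The wider clock loop was described from 19 further genes, of which 18 were tested and Arntl2, a relative of Arntl at 0.08 to 0.59 CPM, was not. None passed edgeR's adjusted threshold in any comparison. In Wt diabetic against Wt non-diabetic hearts, 4 had an unadjusted p under 0.05 in edgeR, against 2.78% of all genes: Npas2 (log2 fold change -1.40, SE 0.53) and Rorb (-0.87, SE 0.28) were lower, and Tef (0.75, SE 0.28) and Hlf (0.79, SE 0.30) higher, each with an adjusted edgeR p of 1. The median of the list was 0.06.

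Npas2, which can stand in for Clock as partner of BMAL1, had r = 0.913 with Arntl over the 12 hearts. Its levels were 1.81, 4.09 and 5.11 CPM in Wt non-diabetic, 1.57, 1.91 and 0.628 CPM in Wt diabetic, 1.05, 3.32 and 3.42 CPM in Hif1a+/- non-diabetic, and 3.65, 3.12 and 1.24 CPM in Hif1a+/- diabetic hearts. It was highest in Wt non-diabetic 89, as Arntl was, and lowest in Wt diabetic 80, and the log2 fold change in Hif1a+/- was 0.09 (SE 0.50).

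Ciart, a repressor of the activator pair, varied widely between single hearts. Its levels were 14.6, 2.87 and 3.84 CPM in Wt non-diabetic, 7.06, 18.0 and 16.7 CPM in Wt diabetic, 28.2, 3.10 and 3.32 CPM in Hif1a+/- non-diabetic, and 4.01, 4.67 and 7.42 CPM in Hif1a+/- diabetic hearts. The highest heart was Hif1a+/- non-diabetic 14, whose group otherwise lay near 3 CPM.

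Tef and Hlf, which share the D-box with Dbp, ranged from 96.3 to 254 CPM and from 12.9 to 41.5 CPM, and both were highest in Wt diabetic 80. Bhlhe41, which competes for E-boxes, was also highest there (36.9 CPM). Nfil3, a repressor at the D-box, was highest in Wt diabetic 50 (39.5 CPM) and lowest in Hif1a+/- non-diabetic 14 (9.54 CPM). Bhlhe40, a relative of Bhlhe41, ranged from 71.9 to 118 CPM.

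The genes most like Arntl over the 12 hearts, by Pearson's r of log2(CPM + 1) among all tested genes, were Cdca2 (r = 0.953), Leo1 (0.929), Npas2 (0.913), Rims4 (0.907) and Spon2 (0.907). Those most like Dbp were Itpr3 (r = 0.954), Sp110 (0.922), Gm37422 (0.917), Tspan4 (0.909) and Gm10443 (0.908). They are the highest of 14706 values each, given as a description with no test, and Npas2 was the only gene of the clock loop among them.

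Genes known as clock outputs in heart were listed as a group of 15, all tested, and none passed edgeR's adjusted threshold in any comparison. In Wt diabetic against Wt non-diabetic hearts 3 of the 15 were higher at an unadjusted p under 0.05 and none lower, against 2.78% of all genes in either direction: Por, the electron donor of cytochromes P450 (log2 fold change 0.28, SE 0.09), Dgat2, which makes triglycerides (0.35, SE 0.12), and Wee1, a cell cycle kinase (0.64, SE 0.29), with an adjusted edgeR p of 1 each. The list's median was 0.17 in Wt and 0.05 in Hif1a+/-. Por measured 66.4 to 72.5 CPM in Wt diabetic hearts, above the 55.3 to 58.9 CPM of Wt non-diabetic hearts without overlap, as 5.54% of all genes did not overlap.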

How the data were processed

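RNA from 12 left ventricles was sequenced as 3′-seq libraries. The authors trimmed reads with Trimmomatic, removed ribosomal and mitochondrial reads, aligned with STAR 2.5.2b to GRCm38 and obtained gene counts from htseq-count (union mode). The deposited counts are whole numbers per gene and were used as they are. The 5 tally lines of each table were left out, and the deposited normalized counts were not used. Total counts were between 16132442 and 39812939 per heart, and the lowest count of a member in any heart was 63. Counting error weighs more for genes with fewer counts, such as Npas2 with 11 in Wt diabetic 80.

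Groups came from the sample labels. Comparisons were tested by quasi-likelihood in edgeR 4.0.16 (R 4.3.3), with TMM normalization, 1 mean per group, the default filter by group (14706 genes) and Benjamini-Hochberg adjustment over all tested genes, with a threshold of 0.1. The biological coefficient of variation was 13.7%, with 8 residual degrees of freedom. The script was tested on simulated data. Over the 13071 genes with at least 10 counts in every heart, hearts of the same group differed by more than sampling noise in all 12 pairs (chi-square per gene between 5.54 and 47.3). Correlations used log2(CPM + 1) and permutation tests with 100000 resamples, two-sided. Alternatives were DESeq2 1.42.0, limma-voom (limma 3.58.1), other filters and normalizations, a threshold of 0.05 and leaving out each heart. Symbols were matched for 46488 of 46983 identifiers. The members and gene lists were chosen with earlier results of these data known. Named genes were all members, the loop genes Npas2, Nfil3, Tef, Hlf, Ciart, Bhlhe40 and Bhlhe41, Hif1a, the 5 genes most correlated with Arntl and with Dbp, and up to 10 genes per list by smallest p. Of the loop genes to be named, 1 is not reported here.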

Additional observations from a re-analysis of the deposited data

How the results depend on the processing

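No analysis paired by litter was possible because the labels name neither dam nor litter. The paper states that the hearts of a group came from different litters, and whether groups shared litters is not given. Members called were 0 in all 8 comparisons with edgeR, and again 0 with DESeq2, with DESeq2 size factors in edgeR, with at least 10 counts in every heart, at a threshold of 0.05 and when any heart was left out. Without a filter on low counts edgeR called 6 members for diabetes in Wt (Arntl, Per1, Per2, Per3, Cry2 and Dbp), 2 for Hif1a+/- diabetic against Wt non-diabetic (Arntl and Dbp), 2 for diabetes in Hif1a+/- (Arntl and Clock), 4 for Hif1a+/- against Wt after diabetic pregnancy (Per1, Per2, Per3 and Cry1), 3 for the interaction (Per2, Per3 and Cry1), 4 for diabetes over both genotypes (Arntl, Clock, Cry2 and Dbp), 2 for genotype over both pregnancies (Per1 and Per2) and 0 for genotype after non-diabetic pregnancy. Over all genes the calls went from 0 to 129, 445, 592, 220, 78, 593, 77 and 33 in that order. The fold changes hardly moved (Arntl in Wt -1.45 in both), but its SE went from 0.529 to 0.22, since the prior degrees of freedom for the spread went from 5.3 with 14706 genes to 152 with 27093, which took the moderated variance of Arntl from 7.27 to 1.29. limma-voom with sample quality weights called 1 member, Clock for diabetes in Hif1a+/- (adjusted p 0.0662), with 937 genes in that comparison, and 39 for diabetes over both genotypes. DESeq2 called 4, 68, 201, 24, 0, 203, 7 and 1 genes in the order above. Of the 80 log2 fold changes of members, 32 changed sign under at least 1 alternative, and none of these were in the Wt comparison of diabetes or in that over both genotypes. Correlations with Arntl passed for 7 members under every alternative. Those of Cry1 and Nr1d1 changed sign: Cry1 ran from -0.275 to 0.035 and Nr1d1 from -0.0857 to 0.23 when a heart was left out, and Nr1d1 was -0.182 after subtracting group means and -0.068 without the 2 hearts farthest from the median of Arntl.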

Other observations

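Genes known to respond to hormones, temperature or handling were listed beside the clock genes. Of 10 glucocorticoid-responsive genes, all tested, none passed edgeR's adjusted threshold in any comparison. Tsc22d3, an anti-inflammatory target of the glucocorticoid receptor, had the smallest p of the list for diabetes in Wt. It measured 108 to 136 CPM in Wt diabetic and 83.8 to 91.7 CPM in Wt non-diabetic hearts (log2 fold change 0.49, SE 0.11, edgeR adjusted p = 1), and 82.7 to 102 against 82.3 to 96.4 CPM in Hif1a+/- hearts. The interaction of genotype and diabetes had an unadjusted p under 0.05 for Tsc22d3 and an adjusted p that missed the threshold. The metallothionein gene Mt1 measured 180 to 277 CPM in Hif1a+/- diabetic and 113 to 152 CPM in Hif1a+/- non-diabetic hearts (log2 fold change 0.71, SE 0.24, edgeR adjusted p = 0.316). The groups did not overlap for Tsc22d3 in Wt and for Mt1 in Hif1a+/-, as 5.54% and 24.4% of all genes did not. Of the 10 genes, 1 had an unadjusted edgeR p under 0.05 for diabetes in Wt, against 2.78% of all genes. In Hif1a+/- there were 2, against 12%, and over both genotypes 2, against 11.3%. Over both genotypes, DESeq2 gave Tsc22d3 an adjusted p of 0.0535 and Mt1 one of 0.0926 for diabetes, where it called 1.46% of genes.

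Among 9 temperature-responsive genes, 1 had an unadjusted p under 0.05 for diabetes in Hif1a+/-, where 12% of all genes did, so that the count is near the share of all genes. That gene, Dnajb1, a heat shock co-chaperone, measured 19.6 to 20.8 CPM in diabetic and 21.6 to 63.5 CPM in non-diabetic Hif1a+/- hearts (log2 fold change -0.89, SE 0.40, edgeR adjusted p = 0.412). Among 10 immediate early genes none had an unadjusted p under 0.05 for diabetes within either genotype, and Nr4a1 was at 12.0 to 39.4 CPM in Wt diabetic and 8.27 to 11 CPM in Hif1a+/- diabetic hearts. None of these genes passed the adjusted threshold in edgeR. Their relation to the clock genes was not tested.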
